A study of Mus musculus with 5 samples.

Results

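The enzymes that write, erase and read DNA methylation were followed in uteri deprived of Dicer, the RNase that releases mature microRNAs from their precursors. The members were taken by the gene name on the array and comprised 8 genes, Dnmt1, Dnmt3a, Dnmt3b, Dnmt3l, Tdg, Uhrf1, Mbd2 and Mbd3, of 31490 gene names on the array, with 15 of its 45281 probes. The tested mice, called Dicer cKO, had Dicer deleted by a Cre recombinase under progesterone receptor control, and the control mice were labelled wild type. Both were on a C57BL/6J;129S5/Brd mixed hybrid background and aged 15 days, and RNA came from pools of whole uteri, 2 Dicer cKO pools (10 and 12) and 3 control pools (7, 9 and 11), each read on 1 Illumina bead array. Progesterone receptor Cre acts only in cells that express that receptor, so other cells of the uterus are expected to retain Dicer. How many uteri made a pool and whether any litter was shared could not be read from the labels. The p-values below therefore speak only for the spread among the pools. Whether controls carried Cre or a floxed allele could not be read either. Effects of carrying Cre and of losing Dicer thus cannot be told apart here, also for the progesterone receptor gene Pgr itself. The labels name a human array, whereas the gene names in the files are those of mouse genes, and the names in the files were used.

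Between 47.0% and 48.4% of probes were detected on the Dicer cKO arrays and between 48.4% and 49.5% on the control arrays. The uterine genes Esr1, Pgr, Hoxa10, Hoxa11, Hoxa13 and Wnt7a were detected on all 5 arrays, while Emx2 was detected on too few arrays to be tested. The brighter of 2 probes of Dicer1 read 8.62 and 8.75 log2 units in Dicer cKO pools 10 and 12, against 9.15, 9.08 and 9.12 in control pools 7, 9 and 11, and fell by 0.43 ± 0.09 (SE; limma adjusted p = 0.0233). Without Dicer cKO pool 10 its adjusted p was 0.195, and it also missed the threshold without control pool 7, 9 or 11. The dimmer Dicer1 probe had a difference of -0.22 ± 0.13 (limma adjusted p = 0.392). The positions of both probes with respect to the deletion are unknown here, so they are a weak check of the labels. Pgr, the gene whose promoter drives Cre, fell by 0.77 ± 0.14 (log2, SE; limma adjusted p = 0.00793, and 0.117 without Dicer cKO pool 10).

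In mammals most cytosine methylation lies at CpG sites. Dnmt3a and Dnmt3b lay the pattern down, and Dnmt3l, which has no catalytic activity of its own, stimulates them. After replication Uhrf1 binds hemimethylated DNA and brings in Dnmt1, which copies the pattern to the daughter strand. Tdg, thymine DNA glycosylase, cuts out oxidised methylcytosine made by the Tet enzymes and so takes part in active demethylation. Mbd2 binds methylated CpG and Mbd3 resembles it, and each is a subunit of the NuRD histone deacetylase and chromatin remodelling complex. In embryonic stem cells lacking Dicer, de novo methyltransferases are known to be low, through a rise of the repressor Rbl2 when the miR-290 cluster is lost.

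Several of these genes are reported targets of microRNAs that Dicer makes. The miR-29 family has been reported to target human DNMT3A and DNMT3B and mouse Tdg and the Tet genes, and miR-148 and miR-152 have been reported to target human DNMT1 or DNMT3B. Their mature sequences are shown because Dicer makes these microRNAs and members are among their reported targets. Whether they act on the members in these uteri was not tested. Capitals mark the seed, bases 2 to 8, which pairs with the target. All sequences are RefSeq's on build GRCm38.p6, and microRNA levels were not analysed here. The 3 members of the miR-29 family share the seed AGCACCA, and miR-148a, miR-148b and miR-152 share CAGUGCA. The mature miR-29a lies at chr6:31062673-31062694 on the minus strand and miR-29c at chr1:195037600-195037621 on the plus strand, and miR-29b has a copy in each of these clusters.
miR-29a-3p: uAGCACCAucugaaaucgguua
miR-29b-3p: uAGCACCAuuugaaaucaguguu
miR-29c-3p: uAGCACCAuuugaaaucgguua
miR-148a-3p: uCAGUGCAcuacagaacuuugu
miR-148b-3p: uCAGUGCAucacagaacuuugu
miR-152-3p: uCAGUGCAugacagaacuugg

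Uhrf1, Dnmt3b and Tdg were higher in Dicer cKO uteri, by 1.50-fold, 1.44-fold and 1.48-fold at their brightest probes. Dnmt1 and Mbd3 were well detected and not called, both probes of Dnmt3l read lower in Dicer cKO pools without passing the threshold, and no probe of Dnmt3a or Mbd2 was detected in any pool. Detection meant a detection p under 0.05, and probes detected on at least 2 of the 5 arrays were tested. Of the 15 probes 8 passed, from 6 genes, and 7 of these were detected on all 5 arrays. Of the 8 tested probes, 4 were called higher and 0 lower by limma at an adjusted p under 0.05, where 2.35% of all 22845 tested probes were called higher, 3.52% lower and 5.87% in either direction. At an unadjusted p under 0.05, 4 of the 8 were higher and 2 lower, where 9.78% of all tested probes were higher and 9.84% lower. One of the 4 called probes, the dimmer Tdg probe, passed the detection filter only through the Dicer cKO pools and is not counted as support for a rise.

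**Figure D1:**
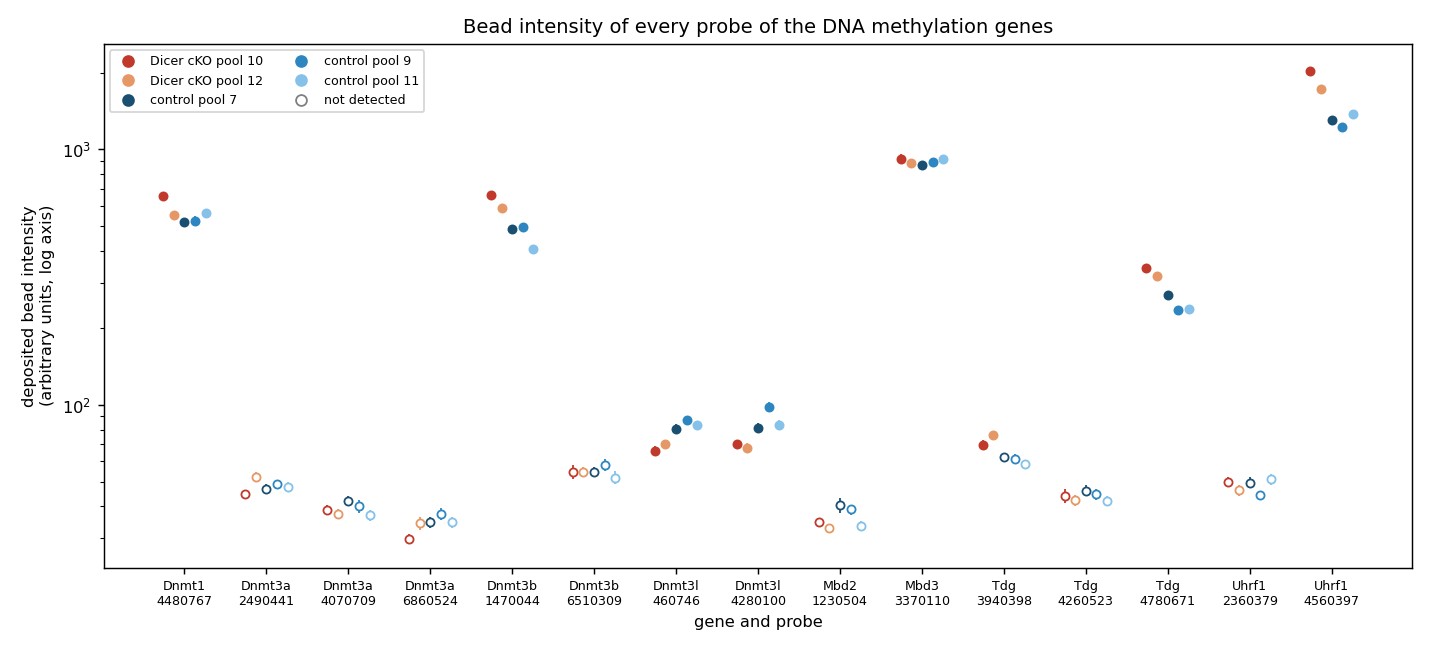
Deposited bead intensity (arbitrary units, log axis) of each of the 15 probes on each array, with Dicer cKO pools in red and orange and control pools in blue; bars are the standard error over beads and open circles mark arrays where the probe was not detected. The bright probes of Uhrf1, Dnmt3b and Tdg lie higher in both Dicer cKO pools than in any control pool, and 7 probes, including all of Dnmt3a and Mbd2, are open on every array.

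Uhrf1, the factor that guides maintenance methylation, was the brightest member. Probe 4560397 gave intensities of 2031.9 and 1726.4 in Dicer cKO pools 10 and 12, against 1306.1, 1221.1 and 1380.5 in control pools 7, 9 and 11. Both Dicer cKO pools lay above all control pools, and the standard error over the beads of an array was between 36.9 and 67.9. After normalization the level was 10.88 ± 0.27 log2 units in Dicer cKO pools (SD, n = 2) and 10.29 ± 0.19 in control pools (SD, n = 3). The difference was 0.59 ± 0.13 (SE), a 1.50-fold increase with a 95% interval from 1.23-fold to 1.84-fold (limma adjusted p = 0.0270). The second Uhrf1 probe, 2360379, read between 44.3 and 51.0 on all arrays and was nowhere detected.

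Dnmt1, the maintenance methyltransferase that Uhrf1 recruits, showed a smaller difference that was not called. Its probe read 655.2 and 552.9 in Dicer cKO pools 10 and 12, against 519.9, 524.6 and 564.6 in control pools 7, 9 and 11. The groups overlapped, since control pool 11 lay above Dicer cKO pool 12. The normalized difference was 0.24 ± 0.14 (SE), with a 95% interval from -0.08 to 0.56 and a limma adjusted p of 0.402. The interval takes in 0 and overlaps that of Uhrf1, which ran from 0.30 to 0.88, and whether Dnmt1 and Uhrf1 differ in response was not tested. Without Dicer cKO pool 10 the Dnmt1 difference was 0.05, and without Dicer cKO pool 12 it was 0.43, so its size rests on which Dicer cKO pool is used.

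Dnmt3b, which sets new methylation marks, was the only de novo methyltransferase with a detected probe, and it was higher in Dicer cKO pools. Probe 1470044 read 661.0 and 587.7 in Dicer cKO pools 10 and 12, against 488.0, 494.7 and 406.9 in control pools 7, 9 and 11. The groups did not overlap. The level was 9.25 ± 0.21 log2 units in Dicer cKO pools (SD, n = 2) and 8.73 ± 0.10 in control pools (SD, n = 3), which differ by 0.53 ± 0.11 (SE; limma adjusted p = 0.0227). The fold was 1.44, with a 95% interval from 1.21 to 1.72. A second Dnmt3b probe, 6510309, stayed below detection, between 51.9 and 58.3 on all arrays, so only 1 probe gives a value.

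Of Dnmt3a, the other de novo enzyme, no probe was detected. Its 3 probes read between 29.9 and 52.2 across the 5 arrays, with detection p from 0.219 up to 1. No level or difference can be given for Dnmt3a from these arrays.

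Dnmt3l, the cofactor best known from germ cells and early embryos, was dim but detected on all 5 arrays by both of its probes. Probe 460746 read 66.2 and 69.9 in Dicer cKO pools 10 and 12, against 80.2, 87.1 and 83.4 in control pools 7, 9 and 11. Probe 4280100 read 70.2 and 67.9 in the same Dicer cKO pools, against 81.1, 97.9 and 83.3 in the control pools. With either probe both Dicer cKO pools lay below all control pools. The differences were -0.43 ± 0.15 and -0.47 ± 0.17 (SE), and neither passed (limma adjusted p = 0.142 and 0.153; unadjusted p = 0.0168 and 0.0193). The probes ranked at percentiles 22.5 and 24.4 of mean signal among tested probes, where the offset of 16 compresses differences.

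Tdg, the glycosylase of active demethylation, was higher at its brightest probe. That probe, 4780671, read 341.7 and 320.6 in Dicer cKO pools 10 and 12, against 268.1, 235.4 and 237.4 in control pools 7, 9 and 11. The level was 8.29 ± 0.17 log2 units in Dicer cKO pools (SD, n = 2) and 7.72 ± 0.08 in control pools (SD, n = 3), which differ by 0.56 ± 0.12 (SE; limma adjusted p = 0.0196). The fold was 1.48, with a 95% interval from 1.23 to 1.77, and the groups did not overlap. Probe 3940398 read 69.8 and 76.0 in the Dicer cKO pools, against 62.5, 61.6 and 58.5 in the control pools, where its detection p lay between 0.0582 and 0.0623. It was detected in both Dicer cKO pools and in no control pool, so it was tested only because of the Dicer cKO pools. Its mean intensity was 72.9 in Dicer cKO pools and 60.9 in control pools, and its call was lost in 6 of 9 alternatives, among them each control pool left out (limma adjusted p from 0.0761 to 0.134). The third Tdg probe, 4260523, read between 42.1 and 46.1 and was not detected.

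The readers gave no called change. Mbd3 was bright, at 917.2 and 881.8 in Dicer cKO pools 10 and 12, against 869.5, 895.1 and 919.6 in control pools 7, 9 and 11, and the groups overlapped. Its difference was 0.06 ± 0.11 (SE), with a 95% interval from 0.87-fold to 1.24-fold (limma adjusted p = 0.834). The single Mbd2 probe read between 32.8 and 40.4 and was detected on no array, so Mbd2 was not measured.

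**Figure D2:**
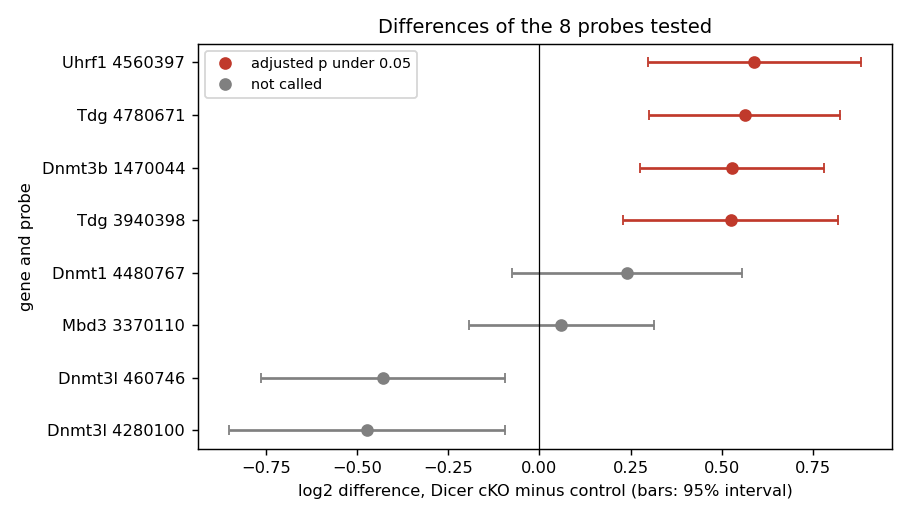
Log2 difference, Dicer cKO minus control, of the 8 tested probes, with 95% intervals of the limma fit; red marks an adjusted p under 0.05. The 4 red probes of Uhrf1, Tdg and Dnmt3b lie between 0.52 and 0.59, of which Tdg 3940398 was detected in no control pool, Dnmt1 and Mbd3 cross 0, and both Dnmt3l probes lie below 0 without passing.

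Counted without a test, both Dicer cKO pools lay above all control pools for 4 of the 8 tested probes and below them for 2, where 19.6% and 17.1% of all tested probes did so. The 4 include Tdg probe 3940398, which passed the detection filter only through the Dicer cKO pools and is no support for a rise. The calls rested on few arrays. With Dicer cKO pool 10 left out, 0 of the tested member probes were called, with Uhrf1 at 0.40, Tdg at 0.44 and Dnmt3b at 0.38 and limma adjusted p from 0.214 to 0.303, while over the whole array 104 probes were then called higher and 252 lower, against 536 and 804 with all pools. Without Dicer cKO pool 12, 3 member probes were called higher. Without control pool 7, 9 or 11, the count was 0, 1 and 2. For the bright probes of Uhrf1, Tdg and Dnmt3b the difference stayed positive in all 13 alternatives, between 0.38 and 0.78.

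The promoters of the 3 genes that rose are shown from 250 bases before the annotated start to 50 after it, on the strand of the gene, with each CpG, the site these enzymes act on, in capitals. Uhrf1 has 2 annotated starts.
Dnmt3b, chr2:153649199-153649498, plus strand: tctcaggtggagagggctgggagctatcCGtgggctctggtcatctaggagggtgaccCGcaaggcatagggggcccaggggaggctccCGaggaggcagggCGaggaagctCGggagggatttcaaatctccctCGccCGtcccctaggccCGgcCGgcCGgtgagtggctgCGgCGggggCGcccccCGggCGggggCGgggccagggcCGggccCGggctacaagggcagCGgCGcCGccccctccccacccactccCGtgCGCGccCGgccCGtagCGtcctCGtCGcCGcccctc
Tdg, chr10:82629588-82629887, plus strand: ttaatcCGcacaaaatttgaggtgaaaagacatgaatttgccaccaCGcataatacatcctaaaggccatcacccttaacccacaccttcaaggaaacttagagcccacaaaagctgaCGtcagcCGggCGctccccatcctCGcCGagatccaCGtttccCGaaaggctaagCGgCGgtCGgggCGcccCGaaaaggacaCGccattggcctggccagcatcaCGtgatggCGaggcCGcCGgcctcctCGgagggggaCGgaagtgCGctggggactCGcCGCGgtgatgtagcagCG
Uhrf1 first start, chr17:56303087-56303386, plus strand: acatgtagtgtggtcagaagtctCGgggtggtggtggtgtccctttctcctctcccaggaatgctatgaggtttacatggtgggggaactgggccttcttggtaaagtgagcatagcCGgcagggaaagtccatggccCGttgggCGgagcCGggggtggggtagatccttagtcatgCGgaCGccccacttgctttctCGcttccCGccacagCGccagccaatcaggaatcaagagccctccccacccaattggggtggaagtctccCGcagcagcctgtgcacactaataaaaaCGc
Uhrf1 second start, chr17:56304063-56304362, plus strand: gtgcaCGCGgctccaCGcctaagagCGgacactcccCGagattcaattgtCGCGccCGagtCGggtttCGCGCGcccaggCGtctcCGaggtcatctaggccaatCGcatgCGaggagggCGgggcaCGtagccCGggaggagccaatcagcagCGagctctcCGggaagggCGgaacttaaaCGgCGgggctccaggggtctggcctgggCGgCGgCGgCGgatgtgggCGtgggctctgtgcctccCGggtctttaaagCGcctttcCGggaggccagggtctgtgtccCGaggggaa

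These windows held 30 CpG for Dnmt3b, 26 for Tdg, and 12 and 33 for the first and second starts of Uhrf1, against a median of 7 over 32851 promoter windows. Members that were not called spanned a wider range, with every Dnmt3l window below those of the genes that rose. The 3 windows of Dnmt1 held 2, 12 and 33 CpG, that of Mbd3 held 22 and the 3 of Dnmt3l held 6, 4 and 3, while the 3 of the undetected Dnmt3a held 46, 47 and 18. The windows were searched on both strands for letters bound by E2F factors, which drive genes of the S phase. TTCCCGC lay at bases 203 to 209 of the window at the first start of Uhrf1, and 4.60% of all windows held it. TTTCGCGC lay at bases 66 to 73 at the second start, against 0.323% of all windows. TTTGGCGC, held by 0.514%, was in none of these 4 windows. The Dnmt3b and Tdg windows held none of the 3 words. Dnmt1, which was not called, held TTTGGCGC at bases 284 to 291 of its window with 33 CpG and TTTCGCGC at bases 32 to 39 on the opposite strand. The GC box GGGCGG, held by 35.7% of windows, occurred 4 times for Dnmt3b, 0 times for Tdg, and 1 and 3 times for the starts of Uhrf1, and overlapped no E2F match. A match describes the letters and shows no binding.

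Because Uhrf1 and Dnmt1 are known to rise with S phase, the level in each pool was set beside DNA replication and cell division genes. Of 23 such genes measured, 8 rose, 0 fell and 15 did not pass, where 2.68% of 15733 genes, each by its brightest probe, were called higher and 3.88% lower. The cyclin gene Ccne1 rose by 1.16 ± 0.18 and its relative Ccne2 by 0.65 ± 0.15 (log2, SE). Mcm5, of the replicative helicase, rose by 0.69 ± 0.16, and Aurka, a kinase of mitosis, by 0.67 ± 0.13. The median over the 23 was 0.48, against 0.01 over all genes, all 23 differences were above 0, and 19 were higher at an unadjusted p under 0.05. Over all genes 53% of differences were above 0, and at an unadjusted p under 0.05 10.3% were higher and 10.4% lower. The count of 8 was 2 without the intensity trend, 3 without a detection filter, 0 without Dicer cKO pool 10, 13 without Dicer cKO pool 12, and 1 and 2 without control pools 7 and 9.

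Relative to the control mean, the division genes had a median of 0.68 and 0.30 in Dicer cKO pools 10 and 12, and -0.17, 0.01 and 0.17 in control pools 7, 9 and 11. Uhrf1 stood at 0.78 and 0.40 in the Dicer cKO pools, and at -0.13, -0.08 and 0.22 in the control pools. From high to low Uhrf1 ran through Dicer cKO pools 10 and 12 and then control pools 11, 9 and 7, an order shared by 12 of the 23 division genes. How many of all genes have that order was not counted, so the match only describes these genes. Dnmt1 stood at 0.43 and 0.05 in the Dicer cKO pools, and at -0.19, -0.02 and 0.21 in the control pools. It too had control pool 7 lowest and Dicer cKO pool 10 highest. Among the control pools, pool 7 was also lowest for Dnmt3b, for Mbd3 (-0.18) and for both Dnmt3l probes (-0.21 and -0.28). A low pool 7 is therefore not particular to Uhrf1, Dnmt1 and the division genes. Dnmt3b had 0.68 and 0.38 in the Dicer cKO pools, and -0.06, 0.11 and -0.06 in the control pools. Tdg had 0.68 and 0.44 in the Dicer cKO pools, and 0.00, -0.09 and 0.08 in the control pools. The division genes had no single order: that of Dnmt3b was also the order of Aurka, and that of the bright Tdg probe was also the order of Gins1, Mcm4 and Cdc6. The part of cell division in these differences was not tested.

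**Figure D3:**
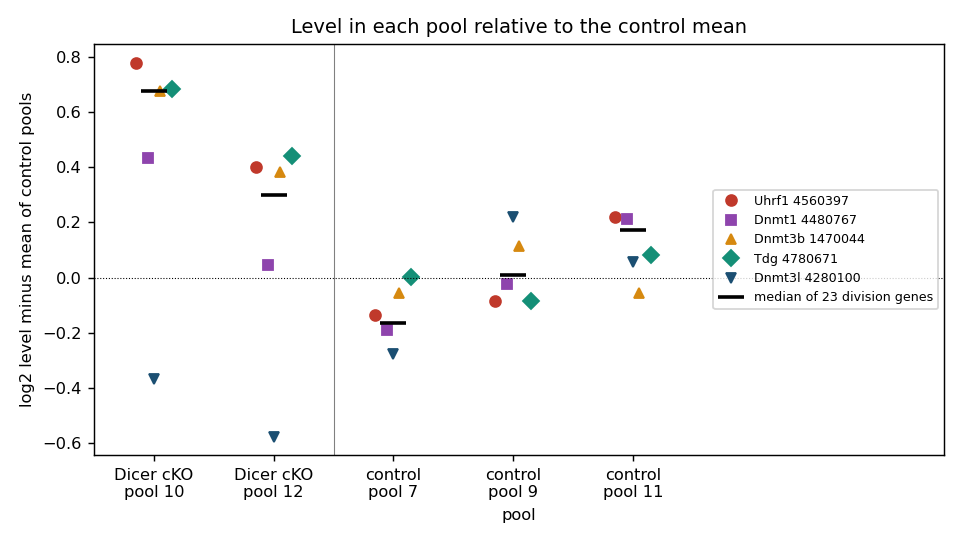
Log2 level in each pool minus the mean of the 3 control pools, for Uhrf1, Dnmt1, Dnmt3b, Tdg, Dnmt3l and the median of 23 division genes (black bars). Uhrf1 and the division genes are highest in Dicer cKO pool 10, at 0.78 and 0.68. Within the control pools both are lowest in pool 7, as are Dnmt1, Dnmt3b and Dnmt3l. Dnmt3l lies below 0 in Dicer cKO pools 10 and 12, at -0.37 and -0.58, and in control pool 7, at -0.28.

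Over the 5 pools, the genes whose pattern was most like that of a member were chosen by Pearson's r among probes whose SD over the pools was at least 0.5 times that of the member probe. For Uhrf1 they were Rrm2 (a dimmer probe of this ribonucleotide reductase subunit), Trim62 and the nuclear export factor gene Cse1l, with r = 0.9996, 0.9995 and 0.999. For Dnmt3b they were Galc, a lysosomal galactosylceramidase, Rpf2 and Vkorc1l1 (r = 0.999, 0.998 and 0.998). For Tdg they were the growth factor gene Mdk, the casein kinase gene Csnk1d and the ligand gene Wnt4 (r = 0.9999, 0.999 and 0.999). With 5 points high values of r are common, and all probes share the same 5 arrays. An r above 0.95 was reached by 397 of 6615 probes considered for Uhrf1, 326 of 8996 for Dnmt3b and 461 of 8530 for Tdg. How many came near the values printed was not counted. The brightest Rrm2 probe differed by 0.31 ± 0.18 (log2, SE; limma adjusted p = 0.384). Its groups overlapped and its order of pools was not that of Uhrf1.

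Other parts of the pathway were followed by lists of genes. Among 18 genes of active demethylation and base repair, 0 rose, 2 fell and 16 did not pass, with 3 higher and 2 lower at an unadjusted p under 0.05. For all genes the shares were 2.68% called higher and 3.88% lower, and 10.3% and 10.4% at the unadjusted threshold. Gadd45a, a stress protein that has been linked to demethylation, fell by 0.64 ± 0.12, and Apobec3, a cytidine deaminase that acts on retroviral DNA, by 0.59 ± 0.13 (log2, SE; limma adjusted p = 0.0129 and 0.0271). Both calls were lost without Dicer cKO pool 10 and without control pool 9, and that of Apobec3 also without control pool 7 or Dicer cKO pool 12 and without a detection filter (limma adjusted p up to 0.195). The Tet enzymes, which make the bases that Tdg removes, were not called. Tet1 differed by -0.10 ± 0.10, Tet2 by 0.11 ± 0.13 and Tet3 by 0.28 ± 0.15. The list's median was 0.06.

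None of 8 genes listed as other methyl-CpG readers was called, and 0 had an unadjusted p under 0.05, where 10.3% of all genes were higher and 10.4% lower. Their differences ran from -0.18 for Zbtb38 to 0.06 for Mbd4, with Mbd5 at -0.17 ± 0.12, and the median was -0.10. Of 11 NuRD subunits, the complex in which Mbd2 and Mbd3 work, 0 were called and 1 was higher at an unadjusted p under 0.05. Cdk2ap1 was at 0.18 ± 0.07 and Mta2 at 0.18 ± 0.09, with a median of 0.05. Differences above 0 numbered 2 of 8 for the readers and 7 of 11 for the NuRD subunits, against 53% of all genes. The median of all genes was 0.01, and Mbd3 was at 0.06.

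Among 19 DNMT partners and chromatin regulators of DNA methylation, 0 were called while 6 were higher and 0 lower at an unadjusted p under 0.05, and 18 of the 19 differences were above 0, where 10.3% of all genes were higher at that threshold and 53% of differences were above 0. Lig1, the ligase that joins replication fragments, was at 0.39 ± 0.10 (limma adjusted p = 0.0524; between 0.0327 and 0.393 with a pool left out) and Ezh2, the H3K27 methyltransferase, at 0.36 ± 0.11 (limma adjusted p = 0.106). The median was 0.15. Of 8 pocket proteins and E2F factors, 0 were called, all 8 differences were above 0 with a median of 0.25, and 4 were higher at an unadjusted p under 0.05, against the same 10.3% of all genes. E2f3 was at 0.53 ± 0.15 and E2f1 at 0.44 ± 0.15 (limma adjusted p = 0.0750 and 0.133). With Dicer cKO pool 12 left out E2f1 passed, at a limma adjusted p of 0.0330, and with Dicer cKO pool 10 left out its adjusted p was 0.663. Rbl2, the repressor named above, did not pass the detection filter.

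In the methionine and folate cycle, which supplies the methyl group, 1 of 15 genes rose, 2 fell and 12 did not pass. At an unadjusted p under 0.05, 5 of the 15 were higher and 3 lower. Of all genes 2.68% were called higher and 3.88% lower, and 10.3% and 10.4% at the unadjusted threshold. Mat2a, which makes the methyl donor S-adenosylmethionine, read 12.20 and 12.07 log2 units in Dicer cKO pools 10 and 12, against 11.73, 11.83 and 11.68 in control pools 7, 9 and 11, and rose by 0.39 ± 0.08 (SE; limma adjusted p = 0.0172). That call was lost in 5 of 13 alternatives, among them without Dicer cKO pool 10 (adjusted p = 0.186) and without control pool 7 or 11. Cbs, which draws homocysteine out of the cycle, read 5.17 and 4.95 in the Dicer cKO pools, against 6.91, 7.36 and 6.59 in the control pools, and fell (limma adjusted p = 0.000469). Cbs was detected on 1 of 2 Dicer cKO arrays, so the size of its difference is uncertain: the fit gave -1.89 ± 0.20 (log2, SE), against -1.10 without background correction and -1.23 with an offset of 50. It was called lower in all 12 alternatives that tested it. Nnmt, which spends S-adenosylmethionine on nicotinamide, fell by 0.60 ± 0.12 (limma adjusted p = 0.0175). It missed the threshold without control pool 9 and without either Dicer cKO pool. The list's median was 0.00.

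Germline genes that promoter methylation is known to silence in somatic cells were mostly below detection. Of 15 on the array 4 were measured, and 1 of these, Brdt, a bromodomain gene of the testis, fell by 0.52 ± 0.13 (limma adjusted p = 0.0499). It missed the threshold in 11 of 13 alternatives, and 3.88% of all genes were called lower. The other 3 did not pass, with Tdrd1 at 0.40 ± 0.16, Asz1 at 0.15 ± 0.16 and Sycp1 at 0.11 ± 0.13. DNA methylation itself was not measured.

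Of 21 miR-29 targets outside the members, 0 rose, 1 fell and 20 did not pass, with 0 higher and 3 lower at an unadjusted p under 0.05. Among all genes 2.68% were called higher and 3.88% lower, and at the unadjusted threshold 10.3% were higher and 10.4% lower. The one that fell was Lox, a collagen crosslinking enzyme, at -0.61 ± 0.13 (limma adjusted p = 0.0234), a call lost without the intensity trend in the variance model, without Dicer cKO pool 10 and without control pool 9 or 11. The median of -0.01 lay by the 0.01 of all genes, while the members reported as targets that were measured, Dnmt3b and Tdg, were at 0.53 and 0.56. Whether these members differ from the other targets was not tested.

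**Figure D4:**
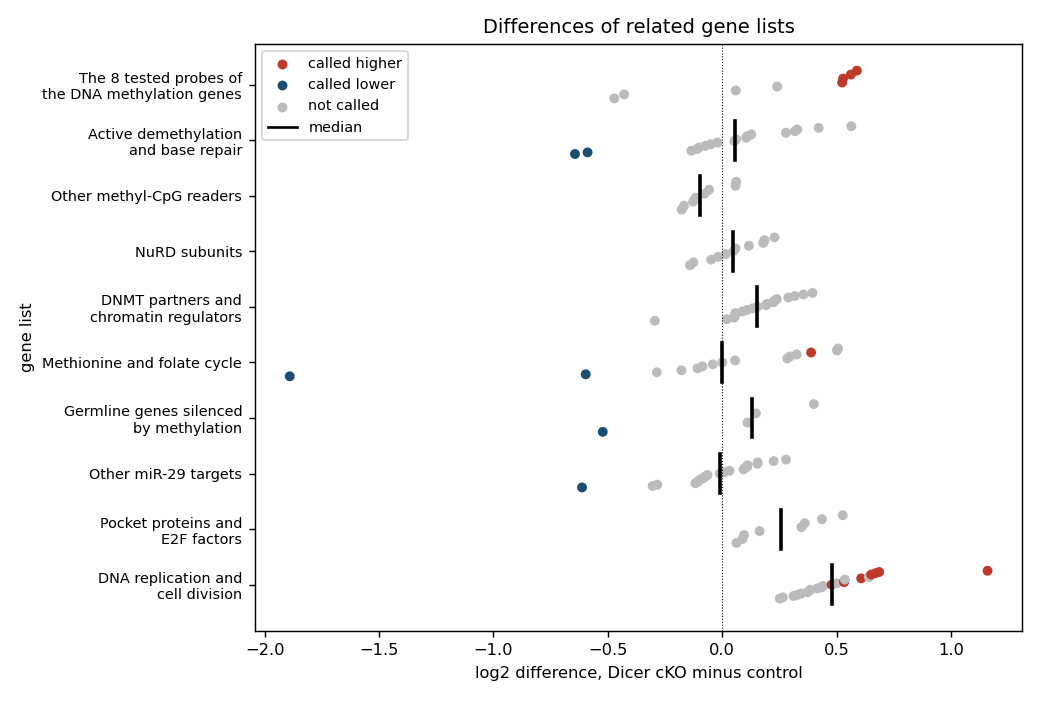
Log2 differences, Dicer cKO minus control, of the 8 tested member probes and of the genes in each related list; red and blue mark genes called higher and lower, grey those not called, and black bars list medians. Division genes all lie above 0 with a median of 0.48, other methyl-CpG readers and NuRD subunits lie between -0.18 and 0.23, and Cbs, not detected on 1 Dicer cKO array, is the far point at a fitted -1.89.

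In whole uterus, fewer cells of a type and less RNA per cell cannot be told apart. Across all genes 2.68% were called higher and 3.88% lower, and 10.3% and 10.4% at an unadjusted p under 0.05. Each sum below is weighted towards the brightest markers of its list. Of 9 stromal markers 4 fell and 0 rose, with 0 higher and 6 lower at an unadjusted p under 0.05, and their summed normalized intensity ran from 33866 to 37466 in Dicer cKO pools and from 40831 to 42361 in control pools. Of 11 epithelial markers 3 rose and 5 fell, with 3 higher and 6 lower at an unadjusted p under 0.05. Their sums ran from 8325 to 8359 in Dicer cKO pools and from 10861 to 14022 in control pools. Of 7 myometrial markers 0 were called, also at an unadjusted p under 0.05, with sums from 48506 to 49855 in Dicer cKO pools and from 46086 to 48372 in control pools. Of 6 endothelial markers 0 were called and 1 was lower at an unadjusted p under 0.05, with sums from 3724 to 4096 in Dicer cKO pools and from 3802 to 4482 in control pools. Of 6 myeloid markers 2 rose and 1 fell, with 3 higher and 1 lower at an unadjusted p under 0.05. Their sums ran from 1746 to 2224 in Dicer cKO pools and from 1992 to 2353 in control pools. The one that fell was Cd14, at -1.81 ± 0.17 (log2, SE), while 5 of the 6 differences were above 0, with a median of 0.28. Of 4 adipocyte markers 3 fell and 0 rose, with 0 higher and 3 lower at an unadjusted p under 0.05. Their sums ran from 668 to 1521 in Dicer cKO pools and from 1965 to 3683 in control pools. Epcam, Itgam, Plin1 and Fabp4 did not pass the detection filter. The part of these shifts in the differences of Uhrf1, Dnmt3b and Tdg was not tested.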

How the data were processed

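The data were 5 bead arrays of mouse uterus. Per the submitters' processing notes BeadStudio was used (version not stated). Per the file headers, the authors deposited for each probe a mean bead intensity, the SD of bead intensities, the number of beads (a count, with a median of 44 on every array) and a detection score, a fraction from 0 to 1; it rose with signal, so 1 minus it served as the detection p. The intensities were neither background-subtracted nor normalized, as judged from minima between 27.9 and 29.5 and unequal medians from 57.5 to 63.0. The number of arrays limits the precision.

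From these, limma 3.58.1 in R 4.3.3 was used: neqc with an offset of 16 (normexp from detection p, quantile normalization, log2), a filter for detection p under 0.05 on at least 2 of 5 arrays (22845 probes), lmFit and eBayes with an intensity trend, no covariate, 2-sided, with Benjamini-Hochberg adjustment over all tested probes. Fold changes are ratios on that offset scale, which understates changes of dim probes. The fit was tested on simulated data. A gene in a list was represented by its brightest probe. Array names were updated through a RefSeq table of GRCm38.p6, with 22864 of 45281 probes carrying a current symbol and 11917 renamed by a synonym. The authors' normalized table, whose columns all had a median of 71.1, a minimum of 30.5 and a maximum of 44606.2, follows a linear intensity scale; its background treatment is unknown, and its rows could not be matched to probe identifiers, so it served only for counts.

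The members and lists were chosen with earlier results of these data known. The rule for names took every member probe, Dicer1, Pgr, up to 4 called genes of each list by size, or 2 by moderated t where none was called, and the 3 most alike genes; others were chosen after their values were seen. Alternatives were the offset, background correction, scaling, filter, variance model, 1 probe for each gene, and each pool left out. No slide or scan information was found, so no batch was tested. Within groups, the squared difference between arrays over its bead variance had a median from 2.19 to 6.64, so no array pair was treated as a repeat.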

Additional observations from a re-analysis of the deposited data

How the results depend on the processing

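Of the 8 tested member probes, Uhrf1, Dnmt3b, Dnmt1 and both probes each of Tdg and Dnmt3l kept their direction in every alternative run. Mbd3, which was not called, ranged from -0.034 to 0.15 with a pool left out and turned negative without control pool 7 (-0.034) or Dicer cKO pool 10 (-0.028). With a pool left out, Uhrf1 ranged from 0.40 to 0.78, Dnmt3b from 0.38 to 0.68, the bright Tdg probe from 0.44 to 0.68, the dim Tdg probe from 0.50 to 0.55 and the count of member probes called higher from 0 to 3. The dim Tdg probe was not tested without either Dicer cKO pool, with detection on all 5 arrays or with 1 probe for each gene. Without the intensity trend, Uhrf1 (0.59) and Dnmt3b (0.53) were not called, 2 member probes and 349 probes in all were called higher. The dim Tdg probe was not called with median scaling (0.51), without background correction (0.24), without a detection filter (0.52) or with any control pool left out (limma adjusted p from 0.0761 to 0.134), 6 of 9 alternatives in all. The cause was not tested. Over the whole array, with a pool left out, between 104 and 512 probes were called higher and between 252 and 723 lower. The authors' normalized table, added after seeing the data, called 507 higher and 788 lower. No scaling moved the median of all probes by over 0.1. No paired analysis was run, because the labels give no pairing of Dicer cKO pools with control pools.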
